A study of Mus musculus with 4 samples.

Results

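Gata4, Gata6, Sox7, Sox17, Foxa1, Foxa2 and Hnf4a encode transcription factors of the primitive endoderm, and their transcript signals were followed over mouse embryonic stem (ES) cells labelled as wild-type or as lacking Ring1B or both Ring1A and Ring1B. The members are all probe sets (groups of short probes against 1 transcript) that the array annotation assigns to exactly 1 of these 7 symbols. They came to 15 of the 45101 probe sets on each array and to 7 of 18193 named genes. Total RNA was hybridised to 4 Affymetrix mouse arrays, 1 per group. The groups were ES cells with a constitutive Ring1B knockout (KO), ES cells with a Ring1A/B double KO, conditional and taken at day 4, in which the deletion was induced with OHT (hydroxytamoxifen), and for each of these a control labelled as wild-type ES cells. The labels do not say whether the double KO control received OHT, which ES cell lines or clones were used, or whether feeder cells were present. Each group is 1 array, so no difference below has a replicate behind it, no p-value is given, and the precision is limited by the number of arrays.

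The primitive endoderm is the layer of the blastocyst that lies over the epiblast and gives rise to the yolk sac lineages, the visceral and the parietal endoderm. FGF signals through ERK favour it over the epiblast, and the GATA factors Gata6 and Gata4, the SoxF factors Sox17 and Sox7 and later the forkhead factors Foxa1 and Foxa2 and the nuclear receptor Hnf4a are switched on in its cells. ES cells stand for the epiblast and normally keep these genes low. Ring1A, encoded by Ring1, and Ring1B, encoded by Rnf2, are the RING-finger subunits of Polycomb repressive complex 1, which holds developmental regulators in a repressed state, and many genes for lineage transcription factors are known targets of it in ES cells.

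The promoter sequences on hand cover 3 of the 7 genes, and they are shown because Foxa1 and Foxa2, close relatives, took different orders over the arrays. They come from RefSeq (GRCm38.p6), 5′ to 3′, as the 250 bases before an annotated start, with capitals on each match to a motif on either strand. The motif searched for GATA factors was GATAA. For Sox factors it was ACAAT. For forkhead factors it was TGTTTAC.
Foxa1, start 1 of 1, chr12:57546112-57546361, minus strand: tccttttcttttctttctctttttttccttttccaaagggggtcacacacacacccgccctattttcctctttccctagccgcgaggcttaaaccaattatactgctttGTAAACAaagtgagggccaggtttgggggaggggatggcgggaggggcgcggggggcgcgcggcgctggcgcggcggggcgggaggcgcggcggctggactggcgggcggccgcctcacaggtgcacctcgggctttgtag
Foxa2, start 1 of 3, chr2:148046970-148047219, minus strand: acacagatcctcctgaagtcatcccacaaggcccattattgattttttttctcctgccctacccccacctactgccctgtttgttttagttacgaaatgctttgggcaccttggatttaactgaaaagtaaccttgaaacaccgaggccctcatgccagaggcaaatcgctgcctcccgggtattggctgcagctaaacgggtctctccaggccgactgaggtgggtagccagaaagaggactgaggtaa
Hnf4a, start 1 of 2, chr2:163506607-163506856, plus strand: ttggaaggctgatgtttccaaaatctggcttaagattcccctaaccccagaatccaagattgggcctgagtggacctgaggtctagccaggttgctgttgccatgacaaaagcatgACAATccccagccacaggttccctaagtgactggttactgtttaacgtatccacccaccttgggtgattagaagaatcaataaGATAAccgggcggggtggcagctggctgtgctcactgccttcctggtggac
The Foxa1 window holds the forkhead motif once, on its minus strand, and neither the GATA nor the Sox motif. The Foxa2 window before its first start holds none of the 3, and that before its last start holds the GATA motif once. The first Hnf4a window holds the GATA motif once and the Sox motif once, and the second none. Among the 250-base windows of 32851 starts, 22.6% hold the GATA motif, 27.7% the Sox motif and 3.17% the forkhead motif. A match describes these letters and is no evidence of binding. Of CG dinucleotides, the sites of DNA methylation and a feature of many Polycomb targets, the Foxa1 window has 21, the Foxa2 windows have 6, 20 and 13 and the Hnf4a windows 3 and 4, beside a median of 6 over all starts.

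Signals are the deposited values after each array was scaled to a common mean of 277 (the mean without the top and bottom 2% of probe sets). A signal under 36.6, the 40th percentile of named probe sets, is called at the floor. The scaled floor stands for a deposited signal of 66.0 on the arrays of the Ring1B pair, 21.2 on the double KO control array and 19.4 on the double KO array. A log2 difference compares floored signals, and with 1 of the arrays at the floor only a lower bound of the fold can be had, written "at least". The targeted genes did not settle the genotypes. Rnf2 read 2580, 2775, 2182 and 1986 on the Ring1B control, Ring1B KO, double KO control and double KO arrays, and Ring1 read 146, 164, 44.7 and 55.6. Whether these probe sets lie in the deleted parts is not known here, so a probe set outside them checks nothing, and the arrays are named as labelled throughout. Each direction in the double KO comparison rests on the labels of that pair, and would turn if its control and double KO arrays were exchanged. All 8 ES cell markers checked, among them Pou5f1 and Nanog, were above the floor on every array.

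Of the 7 factors, 5 had their highest signal on the Ring1B KO array and 4, Gata4, Gata6, Sox7 and Sox17, had their lowest on the double KO array. Foxa1 and Foxa2 were at the floor on both the double KO and the Ring1B control arrays, so that their lowest array is not resolved. Gata4, Gata6, Sox7, Sox17 and Foxa2 were 4.09-fold to 5.58-fold higher in the Ring1B KO than in its control, the value for Foxa2 being a bound. These 5 of 7 passed 2-fold upward, as did 3.54% of all 12343 genes with a signal over the floor on either array. No factor was 2-fold lower there, beside 2.61% of all genes. Gata4, Gata6, Sox17 and Foxa1 were at least 2-fold lower in the double KO than in its control, 4 of the 6 factors with a signal over the floor on either array, beside 9.99% of 12353 genes. No factor was 2-fold higher there, beside 3.02% of all genes. In these bulk samples, fewer cells of a type and less RNA per cell cannot be told apart.

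Gata6 is the earliest marker of primitive endoderm fate and, when forced on in ES cells, turns them into extraembryonic endoderm. At its brightest probe set (1425464_at) the signal was 227 on the Ring1B control array, 1006 on the Ring1B KO array, 413 on the double KO control array and 31.5 on the double KO array, the last below the floor. It was 4.44-fold higher in the Ring1B KO than in its control, and in the double KO it was lower by at least 11.3-fold. The signal was thus above the floor on 3 arrays, highest on the Ring1B KO array, with the double KO control array second. The probe set 1425463_at kept this order, with 152, 634, 337 and 4.53, a difference of 4.18-fold upward and of at least 9.21-fold downward. The dim probe set 1443081_at exceeded the floor on the Ring1B KO array only, at 59.6.

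Gata4 acts after Gata6 in the same cells and is also a factor of the heart. Its signal (1418863_at) was 124 on the Ring1B control array, 508 on the Ring1B KO array, 142 on the double KO control array and 41.1 on the double KO array. This is 4.09-fold higher in the Ring1B KO and 3.45-fold lower in the double KO, each against its own control. Gata4 was the one factor whose signal stayed above the floor on all 4 arrays, and its signals on the control arrays were 1.14-fold apart. The double KO signal lay just over the floor of 36.6, and for a floor raised to the 60th percentile the double KO difference was a log2 value of −0.16 in place of −1.79. At the other probe set (1418864_at) the signals were 64.3, 310.1, 71.7 and 17.2. They stand in the same order, 4.82-fold higher in the Ring1B KO and at least 1.96-fold lower in the double KO.

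Sox17 and Sox7 encode closely related SoxF factors. Sox17 drives the later steps of primitive endoderm differentiation, and both also act in endothelial cells. Sox17 (1421657_a_at) read 118 on the Ring1B control array, 611 on the Ring1B KO array, 78.2 on the double KO control array and 22.3 on the double KO array. It was 5.17-fold higher in the Ring1B KO than in its control and at least 2.14-fold lower in the double KO than in its control. Its other probe set (1429177_x_at), of a type that can match several transcripts, read 217, 1347, 51.5 and 1.13. There the difference was 6.22-fold in the Ring1B KO, and at least 1.41-fold in the double KO because the control itself was near the floor. The probe sets differ most between the controls, where the double KO control was 1.51-fold lower than the Ring1B control by the first and 4.21-fold lower by the second. The Sox17 difference in the double KO comparison was under 2-fold with the mean over both probe sets (a log2 value of −0.79) and with the values as deposited (−0.27).

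Sox7 (1416564_at) read 99.5 on the Ring1B control array, 555 on the Ring1B KO array, 68.9 on the double KO control array and 10.2 on the double KO array. It was 5.58-fold higher in the Ring1B KO, the largest fold among the 4 factors called there whose fold is no bound. In the double KO comparison it was at least 1.88-fold lower, a bound that the closeness of the control to the floor keeps under 2-fold. Its second probe set (1432495_at) did not exceed the floor on any array. Sox7 and Sox17 had the smallest distance of all pairs of factors. The Euclidean distance between their log2 signals over the 4 arrays, each gene centred on its own mean, was 0.18, and the next smallest was 0.82, between Gata4 and Sox17. Both genes were at the floor on the double KO array, where the distance takes them as equal.

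Foxa2 and Foxa1 encode forkhead pioneer factors, which can bind their sites in closed chromatin. They are expressed in visceral and definitive endoderm, and Foxa2 also in the node and floor plate. Foxa2 (1422833_at) was at the floor on the Ring1B control array (19.6), read 168 on the Ring1B KO array and 67.4 on the double KO control array, and was at the floor on the double KO array (16.6). It was higher in the Ring1B KO by at least 4.60-fold, and lower in the double KO by at least 1.84-fold. For a floor raised to the 60th percentile the bound in the Ring1B comparison was a log2 value of 0.41 in place of 2.20, and for one lowered to the 20th it was 3.11. The lower of these floors put the double KO bound at −2.02. Foxa1 (1418496_at) differed from it in the order of the arrays. It was at the floor on the Ring1B control (9.75) and double KO (7.92) arrays, and read 47.4 on the Ring1B KO array and 113 on the double KO control array. Its highest signal was thus on a control array, 2.39-fold above that on the Ring1B KO array. Against its own control it was higher in the Ring1B KO by at least 1.30-fold, and lower in the double KO by at least 3.10-fold. The Ring1B bound, a log2 value of 0.37, passed 2-fold with the values as deposited (1.19) and for a floor lowered to the 20th percentile (2.00), and the double KO bound was −0.81 as deposited.

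Hnf4a encodes a nuclear receptor of the visceral endoderm, liver and gut. Its 4 probe sets read from 1.22 to 41.4 on the Ring1B control array, from 28.1 to 44.2 on the Ring1B KO array, from 1.55 to 19.5 on the double KO control array and from 2.64 to 30.0 on the double KO array. All these signals are at or close to the floor, and no Hnf4a probe set was at least 2-fold apart in any comparison. Its brightest probe set (1450447_at) differed by a log2 value of −0.17 in the Ring1B comparison, and by 0.03 under the mean over its probe sets. The antisense gene Hnf4aos was above the floor on the Ring1B control array only, at 55.6. Hnf4a is counted with the 7, and its value of −0.17 enters their median.

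The median log2 difference of the 7 factors in the Ring1B comparison was 2.15, beside −0.02 over all genes tested. In the double KO comparison the 6 factors tested were all lower, with a median of −1.36, beside −0.05 over all genes. The second median rests on bounds for 5 of the 6, since only Gata4 exceeded the floor on the double KO array. Gata4, Gata6 and Sox17 passed 2-fold in both comparisons, upward in the first and downward in the second. Among 11615 genes tested in both comparisons, 224, or 1.93%, did the same.

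**Figure D1:**
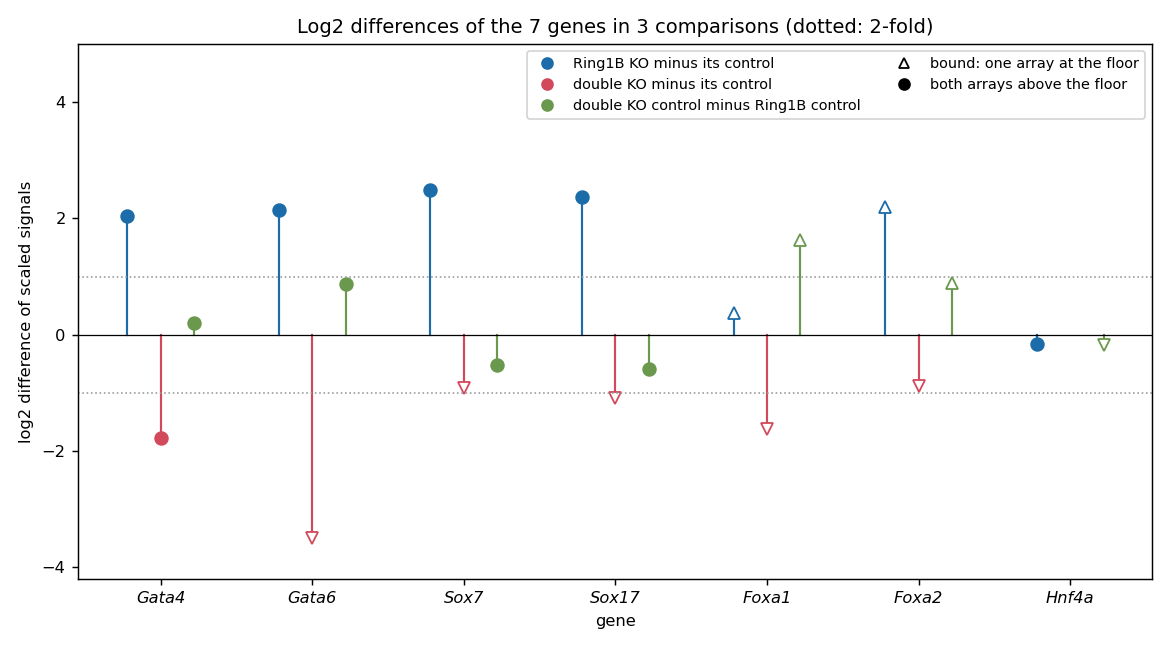
Log2 difference of scaled, floored signals (y axis) for each of the 7 genes (x axis) in the Ring1B KO comparison, the double KO comparison and between the control arrays; open triangles are bounds with 1 array at the floor, and dotted lines mark 2-fold. In the Ring1B KO comparison 5 genes lie above the upper dotted line, and in the double KO comparison 4 lie below the lower one.

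**Figure D2:**
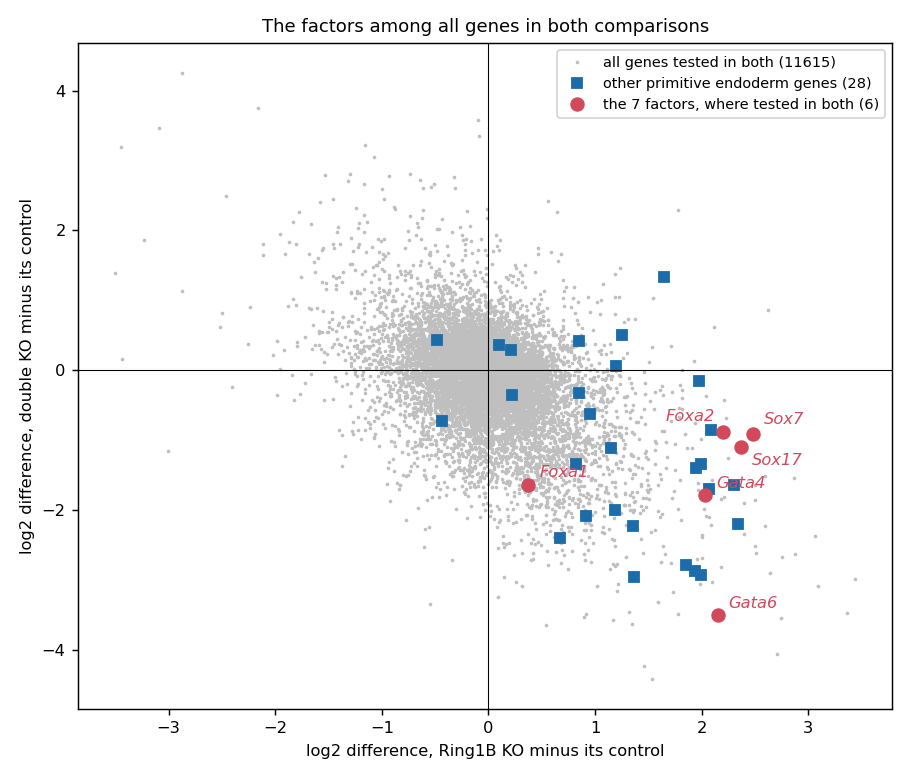
Log2 difference in the Ring1B KO comparison (x axis) against that in the double KO comparison (y axis) for the 11615 genes tested in both (grey), 28 other primitive endoderm genes (blue squares) and 6 of the 7 factors (red, named). Bounds are plotted at their value. Gata4, Gata6, Sox7, Sox17 and Foxa2 lie at the lower right and Foxa1 lower and nearer the middle; Hnf4a, at the floor on both double KO arrays, is not drawn.

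The control arrays, both labelled wild-type, differed in the signals of several factors, as they did for many other genes. The median log2 difference of the factors was 0.19, beside 0.13 over all genes tested. The double KO control exceeded the Ring1B control by 1.82-fold for Gata6, by at least 3.10-fold for Foxa1 and by at least 1.84-fold for Foxa2. For Sox7 and Sox17 it was 1.44-fold and 1.51-fold lower. Only Foxa1 passed 2-fold here, 1 of 7, beside 12.2% of 12645 genes at least 2-fold higher between the controls. Downward, 8.15% of all genes and none of the factors passed 2-fold. By these counts the factors cannot be told from other genes between the controls. Since the arrays fall into pairs with different deposited means, these differences compare arrays of different pairs.

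The differences between controls bear on how far each knockout array stood from either of them. Against the double KO control array, the Ring1B KO array was still higher for Gata4 (3.58-fold), Gata6 (2.44-fold), Sox7 (8.06-fold), Sox17 (7.81-fold) and Foxa2 (2.50-fold), beside 7.98% of 12548 genes at least 2-fold higher. Foxa1 was 2.39-fold lower there, beside 11.1% of genes. Against the Ring1B control array, the double KO array was lower for Gata4 (3.02-fold), Gata6 (at least 6.20-fold), Sox7 (at least 2.72-fold) and Sox17 (at least 3.23-fold), beside 9.87% of 12279 genes at least 2-fold lower. Foxa1 and Foxa2 were at the floor on both of these arrays and have no fold. Since these comparisons share arrays with those above, they are not separate evidence. For the GATA and SoxF factors, the Ring1B KO array thus lay above both control arrays and the double KO array below both.

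The genes with the most similar pattern over the 4 arrays were taken by the same distance from 5037 other genes that exceeded the floor on some array and ranged over at least 1 on the log2 scale (5038 for Hnf4a, whose own range is smaller). Nearest to Gata4 were Amot, Foxq1 and Dram1, at distances of 0.18, 0.33 and 0.38. Nearest to Gata6 were Col4a1 (0.57) and Col4a2 (0.65), which encode the basement membrane collagen chains secreted in bulk by parietal endoderm, and Hspa1b (0.78). Nearest to Sox7 were Sox17 (0.18), Hs3st1 (0.50) and Eva1a (0.54), and nearest to Sox17 were Sox7, Foxq1 (0.57) and Hs3st1 (0.57). For Foxa2 they were Rhpn1, Cemip and Batf (0.23, 0.25 and 0.39), and for Foxa1 Zbtb4, Gal and Cracdl (0.05, 0.08 and 0.09). For Hnf4a they were Ift57, Fubp1 and Armt1 (0.59, 0.59 and 0.60). Signals at the floor are set equal, which makes distances small by construction, most for Foxa1 and Foxa2 with 2 arrays each at the floor, and also for Gata6, Sox7 and Sox17 with 1. With 4 arrays, these distances are a description only.

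Other genes of the primitive endoderm were listed for comparison, 36 of them named on the arrays. They include the receptors, matrix and secreted proteins that its cells make. The list was chosen with earlier results of these data known, so its counts are not separate evidence for the factors. In the Ring1B KO 20 of the 32 above the floor were at least 2-fold higher, beside 3.54% of all genes. None passed 2-fold downward, and the median log2 difference was 1.30. Largest were Tfec, a transcription factor gene, which read 48.0 on the control and 417 on the KO array, and Dkk1, a Wnt antagonist of the visceral endoderm, which read 71.4 and 468. Apoe and Cldn6 went the other way, by log2 values of −0.48 and −0.43. In the double KO 15 of 28 were at least 2-fold lower, beside 9.99% of all genes. There 1 passed 2-fold upward, and the median was −1.23. The lower genes were led by Rbp4, a retinol carrier, at 332 on the control and 42.8 on the double KO array, and by Col4a1, at 1815 and 239. The higher gene was Lama1, a laminin chain, at 203 and 513, while Fst differed by a log2 value of 0.50. Afp, Apoa1, Cer1 and Ihh, several of them late markers of visceral endoderm or yolk sac, were at the floor on all 4 arrays.

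By role, a grouping made with the values known, all 4 genes of the uptake machinery (Cubn, Amn, Lrp2 and the adaptor gene Dab2) were at least 2-fold higher in the Ring1B KO. Of the 3 measurable in the double KO pair 2 passed 2-fold downward, while Cubn was at the floor on both arrays of that pair against 586 on the Ring1B control array. In the Ring1B KO 4 of 8 secreted and carrier proteins and 1 of 3 simple keratins were at least 2-fold higher. So were 2 of 2 collagen processing genes. The share over all genes was 3.54%, for the uptake genes too. The counts of these last 3 groups lower in the double KO were 2 of 6, 3 of 3 and 2 of 2, beside 9.99% of all genes. The keratin genes Krt8, Krt18 and Krt19 were 5.25-fold, 10.3-fold and 7.15-fold higher in the double KO control than in the Ring1B control. Against the Ring1B control array the double KO array was 1.12-fold, 2.43-fold and 1.36-fold higher for them. Pdgfra, which encodes a receptor that marks primitive endoderm precursors, read 253 on the Ring1B control, 1247 on the Ring1B KO, 113 on the double KO control and 2.07 on the double KO array. Its direction was that of Gata4 and Gata6 in both comparisons, 4.92-fold higher and then lower by at least 3.10-fold. Fibroblast genes, given below, were at least 2-fold lower for 10 of 12 in the double KO, beside 9.99% of all genes. In the Ring1B KO none of 12 was 2-fold apart, beside 3.54% of all genes higher and 2.61% lower. Which cells the signals of Pdgfra and the matrix genes came from was not tested. Among 7 basement membrane genes 4 were higher in the Ring1B KO, and in the double KO 3 were lower and Lama1 was higher. Of the 20 list genes higher in the Ring1B KO 17 were tested in the double KO, where 12 were at least 2-fold lower. Of all 437 genes at least 2-fold higher in the Ring1B KO, 224 were at least 2-fold lower in the double KO.

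**Figure D3:**
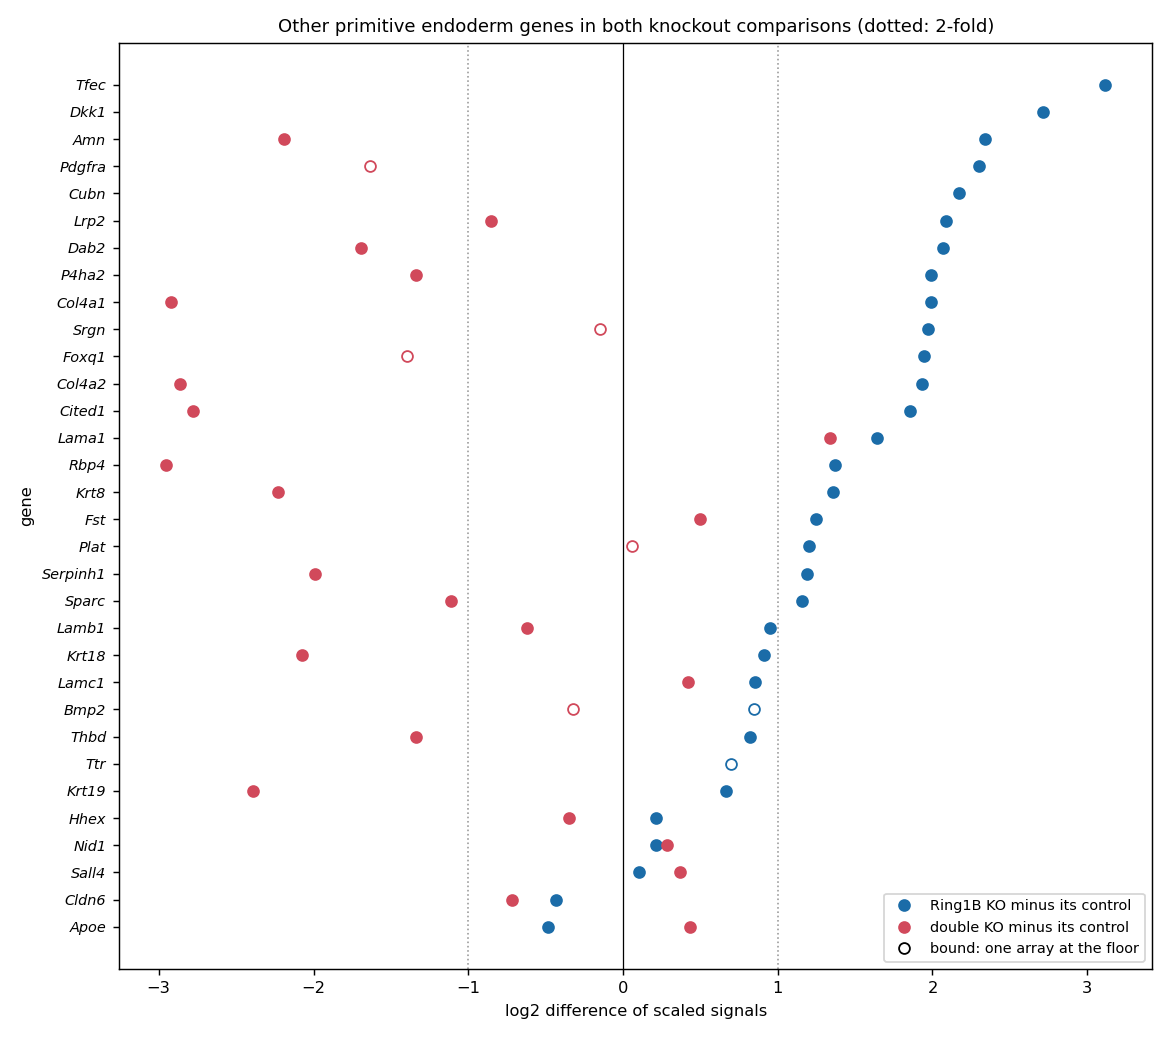
Log2 difference (x axis) of the 32 other primitive endoderm genes with a signal over the floor (y axis), in the Ring1B KO comparison (blue) and the double KO comparison (red); open symbols are bounds, dotted lines mark 2-fold, and genes at the floor on both arrays of a comparison have no point there. Most blue points lie to the right of 0 and most red points to the left, with Lama1 right of 1 in both.

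The signal that specifies the primitive endoderm showed smaller differences. Of 14 named genes of the FGF and ERK pathway none was at least 2-fold higher in either knockout comparison. Etv5, a target of ERK, was 2.02-fold lower in the Ring1B KO (3553 to 1755). The receptor genes Fgfr1 (679 to 223) and Fgfr2 (483 to 191) were 3.04-fold and 2.53-fold lower in the double KO, and the ligand gene Fgf4 differed by −0.13 and 0.80 on the log2 scale in the Ring1B and double KO comparisons. The pathway medians were 0.01 and −0.29. Among 6 GATA cofactor genes, Zfpm1, which encodes the GATA partner FOG1, was 6.51-fold lower in the double KO (417 to 64.1) and differed by −0.34 in the Ring1B KO. Lmo2, an adaptor in GATA complexes, was 2.42-fold lower in the double KO and 1.99-fold higher in the Ring1B KO. These are 2 of the 5 cofactor genes tested in the double KO, beside 9.99% of all genes. Both were also higher in the double KO control than in the Ring1B control, by 3.47-fold for Zfpm1 and 2.30-fold for Lmo2. From the Ring1B control array the double KO array differed by log2 values of −0.91 for Zfpm1 and −0.07 for Lmo2.

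Few relatives of the 7 factors could be measured in the Ring1B comparison. Of 8 named relatives 4 were above the floor there, most of them close to it. None was at least 2-fold apart, beside 3.54% of all genes higher and 2.61% lower, so these 4 cannot be told from other genes. Foxa3 was the largest at a log2 value of 0.69. Gata3, a trophoblast factor, was 9.44-fold lower in the double KO (370 to 39.2) and Gata2 2.47-fold lower. Gata3 also was at least 10.1-fold higher in the double KO control than in the Ring1B control. Gata5, Hnf4g and Onecut1 were at the floor on all arrays, and Sox18, the third SoxF gene, was above it on the double KO control array only, at 39.0.

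The epiblast factors, whose expression opposes that of the primitive endoderm, mostly stayed under 2-fold. Of 13 such genes 1 passed 2-fold downward and 1 upward in the Ring1B KO, where 9 of the differences were below 0 and the median was −0.30. The double KO comparison had 2 past 2-fold upward and 1 downward, with 10 of the differences above 0 and a median of 0.66. Klf2, a Krüppel-like factor of naive pluripotency, was 2.32-fold lower in the first (1937 to 835) and 4.29-fold higher in the second (1706 to 7318). Tbx3, a factor found both in ES cells and in primitive endoderm, was 2.43-fold higher in the first and 2.08-fold lower in the second. Its highest signal was on the double KO control array, 4.10-fold above the Ring1B control. The double KO array was 1.97-fold above the Ring1B control, unlike for the GATA and SoxF factors. Nanog, which represses Gata6, differed by −0.13 and 0.27.

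Fibroblast and trophoblast markers moved with the factors in the double KO comparison more than in the Ring1B comparison. Fibroblast genes were listed because ES cells are often grown on feeder fibroblasts. In the double KO 10 of 12 were at least 2-fold lower, beside 9.99% of all genes. Their summed signal was 3400 on the control array and 996 on the double KO array. In the Ring1B KO none of 12 was at least 2-fold apart, beside 3.54% of all genes higher and 2.61% lower. The sums there were 4134 and 6062. None of the 13 fibroblast genes was at the floor on all arrays. Trophoblast genes were at least 2-fold lower for 7 of 9 in the double KO (sums 2669 and 887), beside 9.99% of all genes. Between the controls, 6 of 9 were at least 2-fold higher in the double KO control and 1 was lower. In the Ring1B KO 1 of 9 passed 2-fold upward and 1 downward, and 7 differences were above 0. The sums there were 1977 and 1493, of which Tfap2c alone made up 1496 and 692. The part of the fibroblast and trophoblast genes in the result was not tested.

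Gata4, Sox17 and Foxa2 are also genes of other lineages. Of 10 cardiac mesoderm markers, 1 of the 8 above the floor was at least 2-fold higher in the Ring1B KO, Myh6 at 206 from the floor. In the double KO 4 of 6 were at least 2-fold lower. The shares over all genes were 3.54% and 9.99%. Between the controls 4 of 7 were at least 2-fold higher in the double KO control, beside 12.2% of all genes. Against the Ring1B control array none of the 5 tested was at least 2-fold lower on the double KO array. The sums of the 10 were 254 on the Ring1B control, 583 on the Ring1B KO, 688 on the double KO control and 251 on the double KO array. In the Ring1B KO 7 of the 8 differences were above 0, and in the double KO all 6 were below 0. Mef2c and Tnnt2 were at the floor on all arrays. Of the definitive endoderm and streak markers Lhx1 and Cer1 were at the floor on all arrays and Gsc and Mixl1 above it on the double KO control array only. Eomes, which trophoblast also expresses, was 1.92-fold higher in the Ring1B KO and 5.18-fold lower in the double KO. It was 5.31-fold higher in the double KO control than in the Ring1B control. Of this list 3 markers were tested in the Ring1B comparison, with all 3 differences above 0 and none past 2-fold. Of the endothelial markers Kdr, Cdh5, Tie1 and Emcn were at the floor on all arrays, and Sox18 is given above. Pecam1, which ES cells express too, was 2.49-fold lower in the Ring1B KO and 6.51-fold higher in the double KO, and Tek was 2.45-fold lower and then 3.71-fold higher. Flt1 went the other way, 1.86-fold higher and then lower by at least 2.59-fold, as did Tal1, with bounds of 1.40-fold and 1.90-fold. The liver markers Alb, Apob and Fgb were at the floor throughout, and Ttr and Cps1 were above it on the Ring1B KO array only, at 59.3 and 46.8. Of 5 neural and floor plate markers measurable in the Ring1B comparison none was higher in the KO, all 5 differences were below 0, and Neurod1 was 7.33-fold lower (1004 to 137). Shh was at or near the floor there (45.7 and 23.3). Neurod1 was 2.21-fold higher in the double KO, and Pax6 was lower there (140 to 46.8).

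The nearest named genes on either side of each factor in the RefSeq gene table (GRCm38.p6) were looked up as well. Of 14 neighbours 5 were above the floor in each comparison. In the Ring1B KO none of them was at least 2-fold higher, the nearest being Ttpal, next to Hnf4a, at 1.98-fold (92.7 to 183), and Mipol1, next to Foxa1, was 2.23-fold lower (228 to 102). None of the 5 was 2-fold apart in the double KO. The shares over all genes were 3.54% higher and 2.61% lower in the Ring1B KO, and 3.02% and 9.99% in the double KO. By these counts the 5 neighbours cannot be told from other genes. Fdft1, next to Gata4, differed by 0.07 and −0.01 in the Ring1B and double KO comparisons, Pinx1, next to Sox7, by −0.22 and 0.32, and Mrpl15, next to Sox17, by −0.24 and 0.62.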

How the data were processed

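Total RNA of 4 mouse ES cell samples was labelled in a single amplification cycle and hybridised to Affymetrix arrays, per the labels' protocols. The authors deposited 1 intensity per probe set, on a linear scale, made with MAS5, per the submitters' processing notes; its version and settings are not given in the sources used here. The 2%-trimmed mean of the deposited values was 500.0 on the Ring1B control and KO arrays, 160 on the double KO control array and 147 on the double KO array.

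Each array was multiplied (by 0.554, 0.554, 1.73 and 1.89) to a common 2%-trimmed mean of 277, floored at 36.6, the 40th percentile of named probe sets, and log2-transformed. No detection call was used. Of the probe sets 34945 had 1 symbol in the platform annotation, 932 several and 9211 none here. The probe set with the highest mean log2 signal before the floor stands for a gene. All probe sets of the 7 genes are reported. Differences of at least 2-fold were counted. No statistical test was possible with 1 array per group.

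The members and gene lists were chosen with earlier results of these data known. Outside the members, up to 2 genes per direction of each pathway list were named, those with the largest differences, with markers named as examples. Some genes of the lists are not reported here. Alternatives were other scalings, floors, probe set rules and the other control array. The steps were tested on simulated data. Python 3.11.15, pandas 2.3.3, numpy 2.4.6 and scipy 1.17.1 were used.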

Additional observations from a re-analysis of the deposited data

Results flagged for a closer look

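Gata4, Gata6 and Sox17 went in opposite directions in the knockout comparisons, over 2-fold up on the Ring1B KO array and over 2-fold down on the double KO array, each against its own control. The log2 difference in the double KO comparison minus that in the Ring1B comparison was −3.82 for Gata4, −5.65 for Gata6 and −3.47 for Sox17. The values for Gata6 and Sox17 include a bound. Of all 437 genes at least 2-fold higher in the Ring1B KO, 224 were at least 2-fold lower in the double KO. The opposite directions were thus not particular to these factors. With 1 array per group the difference between the comparisons was not tested.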

How the results depend on the processing

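In the Ring1B comparison the count of 5 factors at least 2-fold higher was 4 for a floor at the 60th percentile, where Foxa2 lost its call, 6 as deposited and 6 for the 20th percentile, where Foxa1 gained one, and 5 under the other alternatives run; the median of 2.15 stayed positive and was lowest, at 1.32, with the other pair's control array, which also made the count lower 1, and Foxa1 turned to −1.26. In the double KO comparison the count lower fell from 4 to 2 and the median to −0.54 with the values as deposited, and to 1 and −0.93 for a floor at the 60th percentile; for one at the 20th percentile 1 factor, Hnf4a, was at least 2-fold higher. Between the controls, the values as deposited, which leave the pairs on different means, gave 0 higher, 3 lower, a median of −0.99 and −1.45 for Gata4. There the count higher, 1 by the main setting, was 2 with median scaling, 2 for the 20th percentile and 0 for the 60th, and the count lower was 1 for the 20th percentile and 1 with the mean of probe sets. The median difference over all genes above the floor on both arrays of the double KO comparison was −0.02, −0.12 as deposited and 0.16 with median scaling; between the controls it was 0.14, −1.44 and 0.31. Median scaling moved the share of higher genes among all at least 2-fold apart from 23.2% to 38.4% in the double KO comparison and from 59.9% to 73.0% between the controls, where it was 1.07% as deposited. Signals near or under the floor limit Foxa1, Foxa2 and Hnf4a and the double KO values of all 7 factors, that of Gata4 included. No paired analysis was possible because each group has 1 array.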
